A study of Mus musculus with 6 samples.

Results

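Matrix metalloproteases (Mmp), proteases of the ADAMTS family (Adamts), the ADAMTS-like proteins (Adamtsl) and the tissue inhibitors of metalloproteases (Timp) were read in cells sorted from the calvarial suture mesenchyme of mice. The genes were taken by symbol from array features that carry 1 gene symbol, without Mmp8 and Mmp9. This gave 47 of the 19938 genes on the array, of which 20 are Mmp, 18 Adamts, 5 Adamtsl and 4 Timp genes. A gene with several features was read by the feature with the highest mean over the 6 samples, which applied to 4 of the 47. Mmp15 and Adamts2 were not analysed here.

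RNA came from 3 samples of Axin2+/GFP+ cells and 3 samples of Axin2-/GFP- cells, each on 1 array. All mice, of a mixed background of C57BL/6J, CD-1 and B6CBAF2, carried both the Axin2rtTA and the TRE-H2BGFP transgene and received doxycycline between postnatal days 25 and 28. In such mice the doxycycline-dependent activator is made under Axin2 control and switches on a histone-GFP fusion, so that GFP marks cells that express Axin2 or recently did. Sutures of 6 to 8 mice were pooled for a sample at postnatal day 28, the cells were freed with 0.2% collagenase, and they were sorted on GFP intensity. The labels name no other marker for the sort. The values are log2 array signals. In such bulk samples, fewer cells of a type and less RNA per cell cannot be told apart.

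Metalloproteases of these families hold a zinc ion in the active site and are made as inactive precursors whose prodomain must be removed. Mmp enzymes cleave collagens, gelatin and other matrix proteins, Adamts enzymes cleave large proteoglycans, procollagens and other glycoproteins, and Timp proteins block the active site. Adamtsl proteins share the binding modules of Adamts enzymes but have no protease domain. In the skull, the sutures are the fibrous joints between the flat bones, and matrix turnover there accompanies the growth of the bone fronts.

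The values were read against a measure of dim signal. Olfactory and vomeronasal receptor genes, which belong to sensory neurons of the nose, had 1196 members on the array. Their median log2 value was 1.79 in Axin2+/GFP+ cells and 1.46 in Axin2-/GFP- cells, and their median log2 change (Axin2+/GFP+ minus Axin2-/GFP-, as throughout) was 0.30, so a small positive change was common at low signal. The upper quartile of the array was 3.72 to 3.76 in Axin2+/GFP+ samples and 3.97 to 4.0 in Axin2-/GFP- samples. The correlation over genes was 0.910 to 0.920 among Axin2+/GFP+ samples and 0.967 to 0.971 among Axin2-/GFP- samples. Markers of suture mesenchyme and fibroblasts were read in both populations, with a mean log2 level per sample of 5.17 to 5.57 in Axin2+/GFP+ cells and 4.58 to 4.88 in Axin2-/GFP- cells. Blood cell markers were read as well. Of 13 neutrophil markers 10 were called higher (mean level 8.63 to 8.94 in Axin2+/GFP+ and 5.88 to 7.50 in Axin2-/GFP- samples), and of 12 B lineage markers 12 were called lower (2.82 to 3.01 in Axin2+/GFP+ and 6.77 to 7.16 in Axin2-/GFP- samples). The part that blood cells have in the results below was not tested.

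Of the 47 genes, 8 were higher in Axin2+/GFP+ cells and 0 were lower in limma after adjustment (threshold 0.05), against 4.64% of all genes called higher and 11.4% called lower. The 8 were the gelatinase Mmp2, the membrane-anchored Mmp25, the proteoglycan-cleaving Adamts4, Adamts5, Adamts9 and Adamts15, the ADAMTS-like Adamtsl1 and the inhibitor Timp2. Between 2 and 6 genes were called when 1 sample was left out, and 2 without Axin2-/GFP- replicate 2. At an unadjusted p under 0.05 limma found 14 of the 47 higher and 1 lower, against 16.3% and 17.6% of all genes, and the methods' t-test found 15 higher and 0 lower, against 14.8% and 13.8% of all genes. Samples of the populations did not overlap for 20 genes on the higher side and 1 on the lower side, against 23.1% and 17.8% of all genes. The median log2 change of the 47 was 0.35, against 0.14 over all genes and 0.30 over the receptor genes.

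Many of the 47 genes had dim signals. A positive change was found for 42 of the 47, and for 89.5% of the receptor genes. The mean of 26 genes stayed within the 95th percentile of the receptor genes, 3.0 in Axin2+/GFP+ and 2.73 in Axin2-/GFP- cells, in both populations. Those 26 had a median log2 change of 0.31, and samples did not overlap on the higher side for 11 of them, against 31.5% of the receptor genes. The other 21 had a median of 0.40, while that of all 10571 genes above the same level was -0.19. A gene could enter these 21 through its higher population alone, so this median supports no direction. When each array was centred on the receptor genes, which shifts every change by -0.32, the median of the 47 was 0.03 and 2 genes, Mmp2 and Mmp25, remained called higher.

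**Figure D1:**
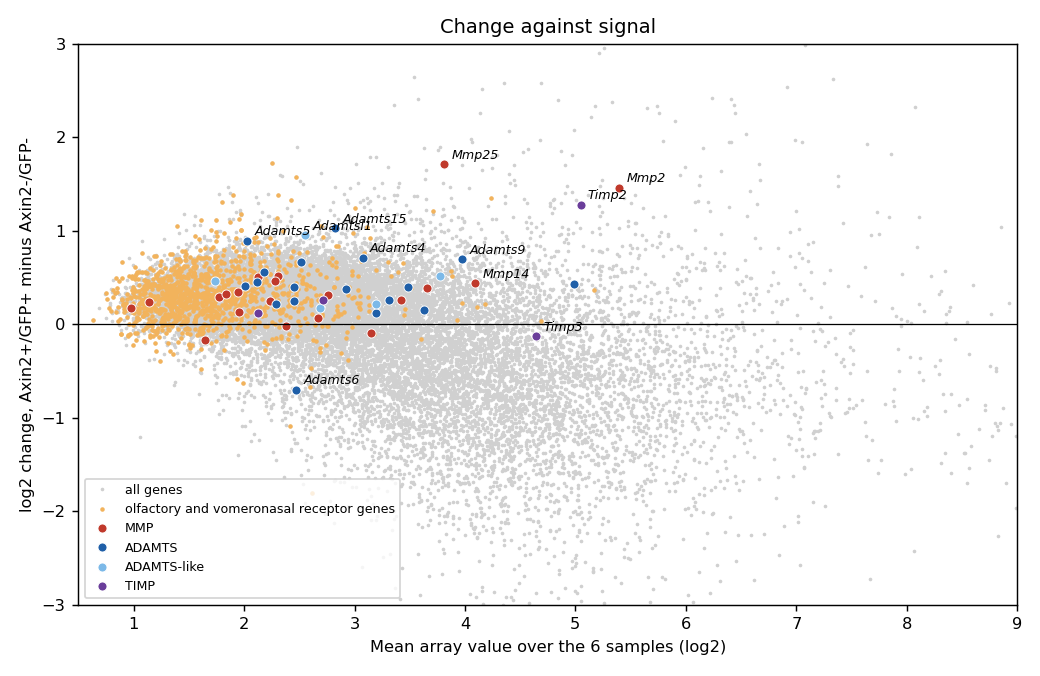
The log2 change between Axin2+/GFP+ and Axin2-/GFP- cells (vertical axis) is shown over the mean log2 value of the 6 samples (horizontal axis) for all genes in grey, for the receptor genes in orange and for the 47 genes in colour by family. Most of the 47 lie among the receptor genes, and Mmp25, Mmp2 and Timp2 lie above them; 126 genes fall outside the plotted range.

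Sequence in front of the called genes was taken from RefSeq promoters of mouse build GRCm38.p6, each a window of 300 bases around the gene's start, most of it before the start. The table held 36 windows of 33 of the 47 genes. Among the 8 called genes it held Adamts9, Timp2 and Mmp25, and these windows are shown because the genes changed in the same direction. Capitals mark a GC box, the letters GGGCGG on either strand (CCGCCC where it lies on the other strand).
Mmp25 (GRCm38.p6, chr17:23645220-23645519, minus strand): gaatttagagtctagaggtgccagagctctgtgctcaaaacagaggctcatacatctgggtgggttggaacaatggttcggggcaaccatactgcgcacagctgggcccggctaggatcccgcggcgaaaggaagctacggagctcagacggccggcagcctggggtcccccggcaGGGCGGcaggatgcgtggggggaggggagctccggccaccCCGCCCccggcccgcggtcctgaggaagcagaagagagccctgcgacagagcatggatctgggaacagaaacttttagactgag
Timp2 (GRCm38.p6, chr11:118355362-118355661, minus strand): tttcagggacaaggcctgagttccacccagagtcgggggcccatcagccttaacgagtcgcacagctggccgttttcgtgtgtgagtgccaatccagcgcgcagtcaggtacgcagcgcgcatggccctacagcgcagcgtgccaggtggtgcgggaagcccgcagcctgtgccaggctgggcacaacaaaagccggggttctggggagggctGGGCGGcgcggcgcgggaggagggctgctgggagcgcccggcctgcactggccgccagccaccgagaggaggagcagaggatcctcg
Adamts9 (GRCm38.p6, chr6:92943485-92943784, minus strand): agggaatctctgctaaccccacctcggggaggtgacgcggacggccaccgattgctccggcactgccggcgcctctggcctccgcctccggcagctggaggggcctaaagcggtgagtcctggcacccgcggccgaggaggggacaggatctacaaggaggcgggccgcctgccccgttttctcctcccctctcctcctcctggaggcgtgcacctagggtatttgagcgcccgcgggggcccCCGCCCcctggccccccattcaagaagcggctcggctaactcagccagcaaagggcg
The Mmp25 window holds 2 GC boxes, and the windows of Timp2 and Adamts9 hold 1 each. A GC box was found in 20 of the 36 windows and in 35.7% of 32851 promoters of the table. The letters of an AP-1 motif, TGANTCA, were found in 8 of the 36 and in 7.81% of all promoters, those of a TCF/LEF motif, CTTTGAT or CTTTGTT, in 3 and in 9.33%, and those of a RUNX motif, TGTGGT, in 6 and in 16.8%, each counted on both strands and with overlaps counted. None of these other 3 motifs is in the windows printed here. These matches describe letters in a window and not sites in use.

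Among the gelatinases, Mmp2, which cleaves denatured collagen and basement membrane collagen, was read on chromosome 8. It had log2 values of 5.97, 6.45 and 5.95 in Axin2+/GFP+ samples and 5.29, 4.53 and 4.17 in Axin2-/GFP- samples. All Axin2+/GFP+ samples lay above all Axin2-/GFP- samples, of which replicate 1 was the highest. The mean was 6.12 ± 0.28 in Axin2+/GFP+ and 4.66 ± 0.57 in Axin2-/GFP- cells (SD, n = 3 each), which is 1.46 higher on the log2 scale (standard error 0.29, 2.75-fold, adjusted p = 0.0124 from limma). Without Axin2-/GFP- replicate 2 the change was 1.39 and missed the threshold, with an adjusted p of 0.0516 from limma.

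Timp2, the inhibitor that also bridges the precursor of Mmp2 to Mmp14 at the cell surface, had log2 values of 5.16, 5.93 and 5.97 in Axin2+/GFP+ samples and 5.22, 3.87 and 4.12 in Axin2-/GFP- samples. Here the populations overlapped, since Axin2-/GFP- replicate 1 lay above Axin2+/GFP+ replicate 1. The mean was 5.69 ± 0.45 in Axin2+/GFP+ and 4.40 ± 0.72 in Axin2-/GFP- cells (SD, n = 3 each). The log2 change was 1.28 (standard error 0.37, 2.43-fold, adjusted p = 0.0468 from limma). The call was lost in 4 of the 6 fits that left out 1 sample. These were without Axin2+/GFP+ replicate 2 or 3 (1.16 and 1.14, adjusted p = 0.110 for each) and without Axin2-/GFP- replicate 2 or 3 (1.01 and 1.14, adjusted p = 0.145 and 0.141).

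Mmp14, the membrane-type collagenase that activates the Mmp2 precursor, did not pass the test. Its log2 values were 4.01, 5.13 and 3.80 in Axin2+/GFP+ samples and 4.11, 3.99 and 3.53 in Axin2-/GFP- samples, a log2 change of 0.44 with a 95% interval of -0.33 to 1.21 (adjusted p = 0.376 from limma). Axin2+/GFP+ replicate 2 stood above the other 5 samples, which overlapped, and without it the change was 0.03. It was 0.26 without Axin2-/GFP- replicate 3, and without Axin2+/GFP+ replicate 3 it was 0.69. The same sample was highest for Mmp2, and it had the highest mean of the suture mesenchyme and fibroblast markers, at 5.57, against 5.25 and 5.17 in the other Axin2+/GFP+ samples. Of these 14 markers 3 were called higher and 0 lower, and the median log2 change was 0.47. A positive change was found for 12, and a negative one for Msx1 (-0.03) and Thy1 (-0.63). Their summed linear signal was 2640 to 3810 in Axin2+/GFP+ and 868 to 1270 in Axin2-/GFP- samples. The 3 called, Col1a1, Col1a2 and Col3a1, were the brightest of the 14 in Axin2+/GFP+ cells and weigh most in that sum. The part of the 14 markers in the change of Mmp2 and Timp2 was not tested.

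Mmp25 had the largest change of the 47 genes with the values as deposited. Its product is a membrane-anchored protease known in human as leukolysin, from leukocytes. The log2 values were 5.17, 4.40 and 4.44 in Axin2+/GFP+ samples and 3.18, 2.80 and 2.90 in Axin2-/GFP- samples. The populations did not overlap, and replicate 1 was the highest in each. The mean was 4.67 ± 0.44 in Axin2+/GFP+ and 2.96 ± 0.20 in Axin2-/GFP- cells (SD, n = 3 each), which is 1.71 higher on the log2 scale (standard error 0.24, 3.28-fold, adjusted p = 0.00269 from limma). It was called in all 6 fits that left out 1 sample. Most of the 13 neutrophil markers moved in the same direction, and 10 were called higher. Csf3r (-0.46) and Cxcr2 (0.03) were not called. Retnlg had a positive change but was not called either, and the populations overlapped for these markers. Over all 13 markers the summed linear signal was 21700 to 23200 in Axin2+/GFP+ and 3170 to 10100 in Axin2-/GFP- samples. Their median log2 change was 1.97. Their mean level was 7.50 in Axin2-/GFP- replicate 1, against 6.43 and 5.88 in the other Axin2-/GFP- samples. In Axin2+/GFP+ replicate 1, where Mmp25 was highest, their mean level was the lowest of that population, at 8.63 against 8.94 and 8.81. The log2 scale holds no 0, so no marker could be read as absent, and the part of neutrophils in the change of Mmp25 was not tested.

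**Figure D2:**
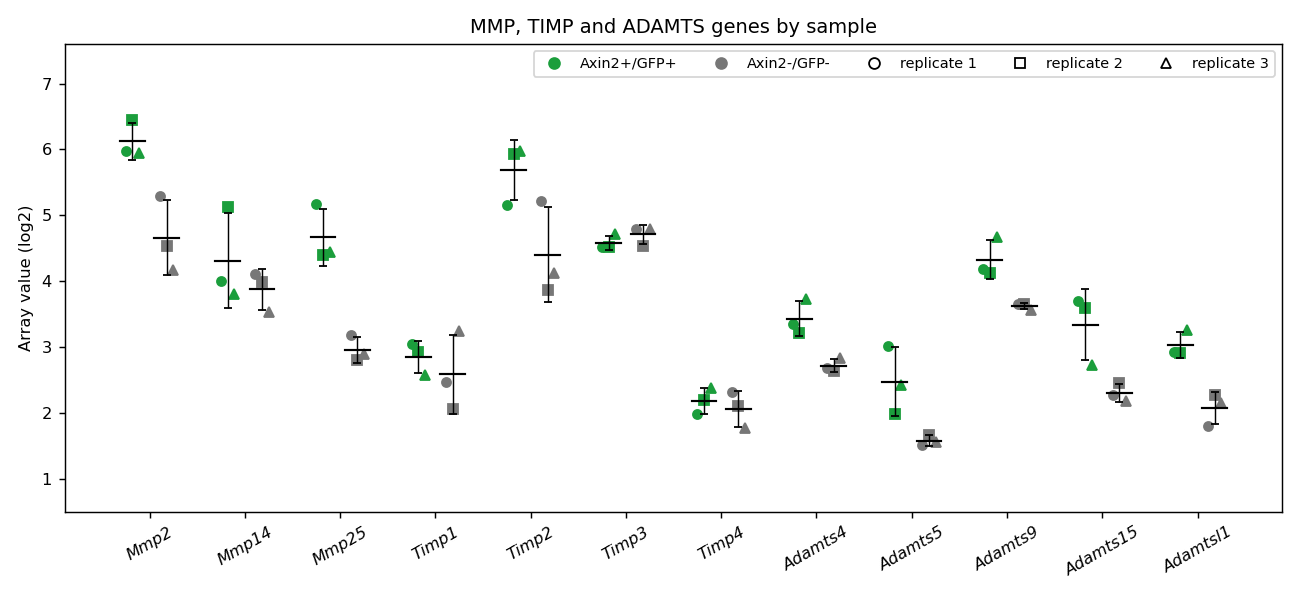
Log2 array values (vertical axis) of the 8 called genes, Mmp14 and the other Timp genes, with Axin2+/GFP+ samples in green to the left and Axin2-/GFP- samples in grey to the right; symbols are replicates, and the bar and whiskers are the mean ± SD of 3 samples. The populations are apart for 7 of the 8 called genes and overlap for Timp2, where Axin2-/GFP- replicate 1 lies at 5.22 and Axin2+/GFP+ replicate 1 at 5.16.

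Of the 5 membrane-type genes measured, the other 4 were not called. Their log2 changes lay between 0.13 and 0.44, and the median of the 5 was 0.31. Of the 3 collagenases 0 were called, with a median of 0.24, while 4.64% of all genes were called higher and 11.4% lower. Mmp13, the collagenase of cartilage and bone, had log2 values of 3.38, 4.11 and 3.16 in Axin2+/GFP+ and 3.41, 2.85 and 3.62 in Axin2-/GFP- samples. These overlapped, and the log2 change of 0.26 had a 95% interval of -0.41 to 0.93 (adjusted p = 0.542 from limma).

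Stromelysins, matrilysin and metalloelastase, which cleave a wide range of matrix proteins, gave 5 measured genes with 0 called and a median log2 change of 0.30. Over all genes 4.64% were called higher and 11.4% lower. None of the 5 had a mean above the 95th percentile of the receptor genes in either population. Among the 6 other Mmp genes 0 were called and the median was 0.43. Mmp21, which is needed for left-right asymmetry in the embryo, had the smallest p of these, at a change of 0.51 on the log2 scale (adjusted p = 0.0673 from limma). Mmp28, also called epilysin, had 0.47 (adjusted p = 0.104 from limma) and Mmp27 had 0.52 (adjusted p = 0.115 from limma). Mmp21, Mmp27 and Mmp28 all stayed at the level of the receptor genes. Mmp23, a membrane-bound enzyme, and Mmp19 were above that level and gave 0.39 (95% interval -0.14 to 0.91) and -0.09 (95% interval -0.75 to 0.57).

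Many Mmp genes lie side by side in the genome. In the RefSeq annotation the order on chromosome 9 is Mmp13, Mmp12, Mmp1b, Mmp3, Mmp1a, Mmp10, Mmp8, Mmp27, Mmp20 and Mmp7, of which 9 belong to the 47. Of these 9, 0 were called, against 4.64% of all genes called higher and 11.4% lower. An unadjusted p under 0.05 from limma was found for 1, on the higher side, against 16.3% of all genes. The median log2 change of the 9 was 0.26. Of the 9, Mmp13 alone had a mean above the 95th percentile of the receptor genes.

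The proteoglycan-cleaving Adamts enzymes were the group of the list with the most calls. Their substrates include aggrecan and versican, which give cartilage and loose matrix their water content. Of 7 measured, 4 were called higher and 0 lower, against 4.64% and 11.4% of all genes, and the median log2 change was 0.70. Samples of the populations did not overlap on the higher side for 6, against 23.1% of all genes and 31.5% of the receptor genes. Only 4 of the 7 had a mean above the 95th percentile of the receptor genes in a population. The mean of the 7 per sample was 3.10 to 3.22 in Axin2+/GFP+ samples and 2.39 to 2.57 in Axin2-/GFP- samples. All 7 had a positive change with the values as deposited, and Adamts1 turned to -0.05 when the arrays were centred on the receptor genes and to -0.11 without Axin2+/GFP+ replicate 2. Some skeletal markers were called higher as well. Of 8 chondrocyte markers 2 were called higher and 0 lower, with a summed linear signal of 83.1 to 102 in Axin2+/GFP+ and 55.4 to 61.6 in Axin2-/GFP- samples. Of 7 osteoblast and osteocyte markers 3 were called higher and 0 lower, with a summed signal of 75 to 101 in Axin2+/GFP+ and 44.6 to 53.4 in Axin2-/GFP- samples. Ibsp was the brightest of the 7 in Axin2+/GFP+ cells. Sp7 was not called (0.26), and neither was Alpl (-0.52), whose Axin2+/GFP+ samples all lay below the Axin2-/GFP- samples. The part of skeletal cells in the change of the Adamts group was not tested.

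Adamts15 had log2 values of 3.70, 3.60 and 2.73 in Axin2+/GFP+ samples and 2.28, 2.46 and 2.19 in Axin2-/GFP- samples. Axin2+/GFP+ replicate 3 was the lowest of its population but lay above all Axin2-/GFP- samples. The log2 change was 1.03 (standard error 0.26, 2.04-fold, adjusted p = 0.0329 from limma). In Axin2-/GFP- cells its mean was within the level of the receptor genes, of which 11.0% were as bright. Adamts5, the main aggrecanase of mouse cartilage, had values of 3.02, 1.98 and 2.43 in Axin2+/GFP+ samples and 1.52, 1.67 and 1.56 in Axin2-/GFP- samples. The spread among the Axin2+/GFP+ samples was wide, and they did not overlap with the Axin2-/GFP- samples. Its log2 change was 0.89 (standard error 0.26, 1.86-fold, adjusted p = 0.0476 from limma). The signal of Adamts5 was that of dim features, since 16.0% of the receptor genes were as bright in Axin2+/GFP+ and 41.7% in Axin2-/GFP- cells.

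Adamts4, an aggrecanase as well, had log2 values of 3.35, 3.22 and 3.73 in Axin2+/GFP+ samples and 2.69, 2.64 and 2.83 in Axin2-/GFP- samples. The populations were apart, with replicate 3 the highest in each. The log2 change was 0.71 (standard error 0.19, 1.64-fold, adjusted p = 0.0371 from limma). In Axin2-/GFP- cells its mean was within the level of the receptor genes, of which 5.1% were as bright. Adamts9, a versican-cleaving enzyme, had values of 4.18, 4.13 and 4.67 in Axin2+/GFP+ samples and 3.65, 3.66 and 3.57 in Axin2-/GFP- samples. The Axin2-/GFP- samples lay close together and below all Axin2+/GFP+ samples. Its log2 change was 0.70 (standard error 0.19, 1.62-fold, adjusted p = 0.0423 from limma). With 1 sample left out, most of these calls were lost. Adamts9 was called without Axin2+/GFP+ replicate 1 or 2 (adjusted p = 0.0489 and 0.0449 from limma) and missed the threshold without any of the other 4 samples (0.53 to 0.72, adjusted p = 0.0837 to 0.128). Adamts4 was called without Axin2+/GFP+ replicate 2 (adjusted p = 0.0355) and not without any other sample (0.56 to 0.77, adjusted p = 0.0532 to 0.116). For Adamts5 the call stayed without that same replicate 2 (adjusted p = 0.0169) and was lost without any other sample (0.62 to 0.94, adjusted p = 0.0794 to 0.136). Adamts15 was called without Axin2+/GFP+ replicate 3 (adjusted p = 0.00472) and not without any other sample (0.85 to 1.10, adjusted p = 0.0742 to 0.106).

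Of the others of this group, Adamts8 had a log2 change of 0.67 (95% interval -0.11 to 1.44, adjusted p = 0.199 from limma). Its Axin2+/GFP+ values of 2.67, 3.02 and 2.85 lay above the Axin2-/GFP- values of 1.31, 2.65 and 2.59, of which replicate 1 was well below the rest. Adamts1, an enzyme of versican turnover, had 3.07, 4.20 and 3.06 in Axin2+/GFP+ and 3.31, 2.86 and 3.36 in Axin2-/GFP- samples. The populations overlapped, with Axin2+/GFP+ replicate 2 the highest sample, and the log2 difference of 0.27 did not pass the test (limma, adjusted p = 0.558).

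Procollagen N-proteinases remove the amino-terminal propeptide of fibrillar procollagens. Of the 2 measured, Adamts3 changed by 0.40 on the log2 scale (limma, adjusted p = 0.199) and Adamts14 by 0.37 (adjusted p = 0.162), and neither value passed the test. Samples of the populations did not overlap for either gene, which held on the higher side for 23.1% of all genes and 31.5% of the receptor genes. Centred on the receptor genes, the changes were 0.08 for Adamts3 and 0.05 for Adamts14.

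Of the 9 other Adamts genes 0 were called, against 4.64% of all genes called higher and 11.4% lower, and the median log2 change was 0.26. Adamts18 came closest to the threshold, with 0.56 (adjusted p = 0.0594 from limma, and 0.0448 with an intensity trend, 0.0494 with array weights and 0.0407 without Axin2+/GFP+ replicate 1), and Adamts16 had 0.45 (adjusted p = 0.143). Both stayed at the level of the receptor genes. Adamts6 had the only negative change with an unadjusted p under 0.05. Its log2 values were 2.28, 2.23 and 1.86 in Axin2+/GFP+ and 2.72, 2.29 and 3.46 in Axin2-/GFP- samples, with Axin2-/GFP- replicate 3 above all other samples and no overlap. The log2 change was -0.70 (95% interval -1.36 to -0.04, adjusted p = 0.129 from limma), and -0.38 without Axin2-/GFP- replicate 3 (adjusted p = 0.338). Adamts17, which with Adamts6 and Adamts10 belongs to the enzymes tied to fibrillin microfibrils, had 5.02, 5.53 and 5.06 in Axin2+/GFP+ and 4.70, 4.93 and 4.68 in Axin2-/GFP- samples. All Axin2+/GFP+ samples were higher, and the log2 change of 0.44 had an adjusted p of 0.156 in limma. The value depended on the scaling, at 0.98 under quantile normalization (adjusted p = 0.0210), 0.96 under cyclic loess (adjusted p = 0.0177) and 0.12 when centred on the receptor genes (adjusted p = 0.769), and it was 0.27 without Axin2+/GFP+ replicate 2. Adamts10 gave 0.15 (95% interval -0.45 to 0.76) and Adamts7, which cleaves cartilage oligomeric matrix protein, 0.13 (95% interval -0.36 to 0.62).

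Of 5 Adamtsl genes 1 was called higher and 0 lower, against 4.64% and 11.4% of all genes. Adamtsl1, whose product is also named punctin, had log2 values of 2.93, 2.91 and 3.26 in Axin2+/GFP+ samples and 1.81, 2.27 and 2.15 in Axin2-/GFP- samples. The populations were apart, with Axin2-/GFP- replicate 1 the lowest sample. The log2 change was 0.96 (standard error 0.20, 1.94-fold, adjusted p = 0.0134 from limma), and without Axin2-/GFP- replicate 1 it was 0.82 (adjusted p = 0.0564). Adamtsl4, which binds fibrillin microfibrils, had a change of 0.52 (adjusted p = 0.209 from limma) that was led by Axin2+/GFP+ replicate 2, at 4.67 against 3.56 and 3.87 in the other Axin2+/GFP+ samples, and it was 0.21 without that sample. Adamtsl3 had 0.47 (adjusted p = 0.0990) and Adamtsl5 0.22 (adjusted p = 0.411).

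Several features of a gene gave a further reading. All 6 features of Adamts9 had positive changes of 0.29 to 0.70, and 1 was called when limma was fitted to every feature. The 5 features of Adamts17 lay between 0.22 and 0.76 with 2 called, so the brightest feature, at 0.44, was not the highest. For Adamts3, 15 of 16 features were positive, the range was -0.01 to 0.93, and 1 was called. For Adamtsl1 the features differed, since the dimmer of the 2 gave a log2 change of 0.06 (standard error 0.18), and the mean of the 2 was not called (0.51, adjusted p = 0.0744 from limma). The mean over the features of Adamts9 was not called either, at 0.47 (adjusted p = 0.107). Features of a gene share the RNA of a sample and are not replicates.

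**Figure D3:**
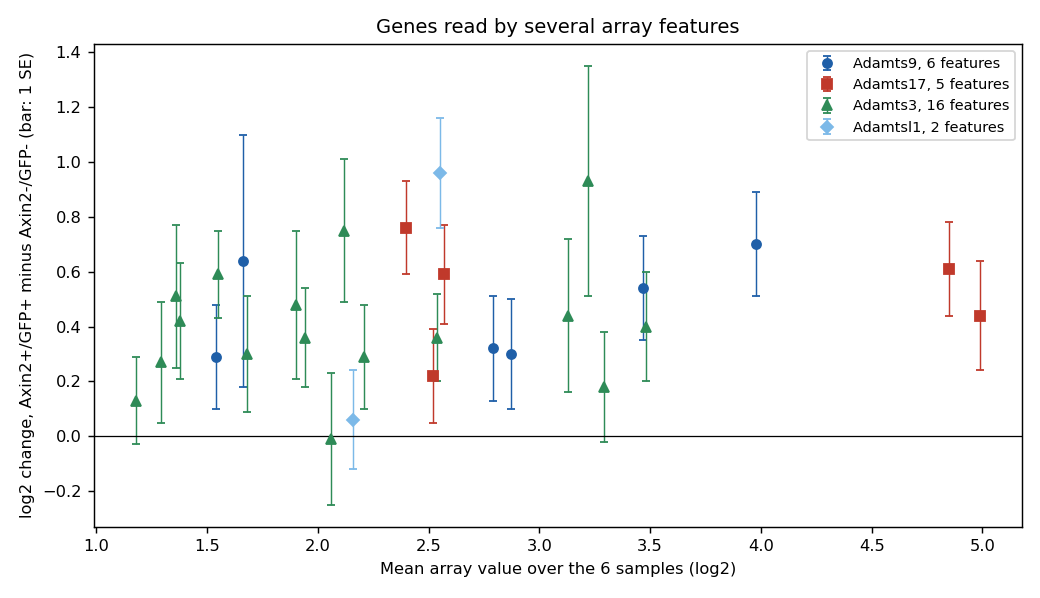
The log2 change between Axin2+/GFP+ and Axin2-/GFP- cells with 1 standard error (vertical axis) is shown over the mean log2 value of the 6 samples (horizontal axis), with 1 point for each array feature of Adamts9, Adamts17, Adamts3 and Adamtsl1. All but 1 of these features, of Adamts3 at -0.01, have a positive change, and the 2 of Adamtsl1 lie at 0.96 and 0.06.

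The inhibitors other than Timp2 did not pass the test. Timp1, a secreted inhibitor of most Mmp enzymes, had log2 values of 3.05, 2.93 and 2.57 in Axin2+/GFP+ samples and 2.47, 2.06 and 3.24 in Axin2-/GFP- samples. The highest sample was Axin2-/GFP- replicate 3 and the populations overlapped, with a log2 change of 0.26 (95% interval -0.41 to 0.94, adjusted p = 0.538 from limma). Timp3, the matrix-bound inhibitor that also blocks aggrecanases, had 4.52, 4.52 and 4.71 in Axin2+/GFP+ and 4.79, 4.54 and 4.80 in Axin2-/GFP- samples. These values overlapped, and the log2 change was -0.13 (95% interval -0.51 to 0.26, adjusted p = 0.606 from limma). Under quantile normalization and cyclic loess it was 0.40 and 0.35, so Timp3 has no settled direction. Timp4 had 1.98, 2.20 and 2.38 in Axin2+/GFP+ and 2.32, 2.10 and 1.78 in Axin2-/GFP- samples, within the level of the receptor genes. Its populations overlapped, and the change of 0.12 had a 95% interval of -0.34 to 0.58 (adjusted p = 0.680 from limma).

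**Figure D4:**
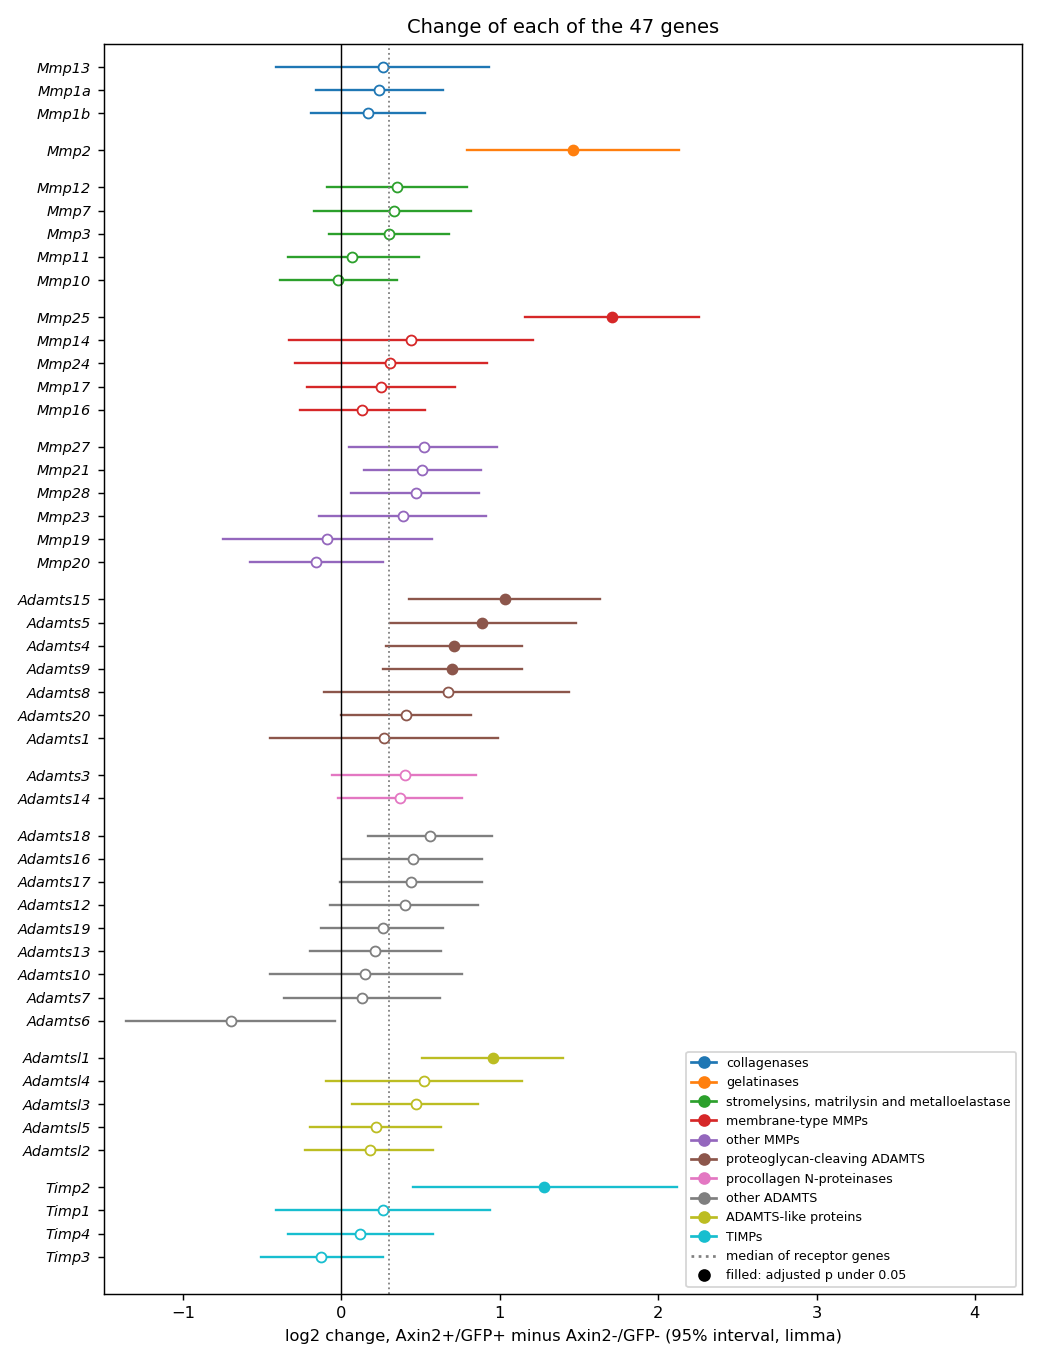
The log2 change between Axin2+/GFP+ and Axin2-/GFP- cells (horizontal axis) of each of the 47 genes with its 95% interval from limma, grouped by role and ordered by change within a role. Filled points are the 8 genes with an adjusted p under 0.05, all to the right of 0, and the dotted line is the median of the receptor genes, 0.30.

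The highest and the lowest of the 6 samples were counted over the 47 genes. No such count was made over all genes, and 89.5% of the receptor genes had a positive change. The counts therefore do not set the 47 genes apart from other dim genes. Axin2+/GFP+ replicate 2 was the highest of the 6 samples for 22 genes, replicate 3 for 11 and replicate 1 for 9. Axin2-/GFP- replicates 1, 2 and 3 were the highest for 0, 1 and 4 genes. Axin2-/GFP- replicate 1 was the lowest for 22 genes, while for Mmp2, Mmp25 and Timp2 it was the highest of its population. The median of the 47 per sample was 2.69, 2.87 and 2.73 in Axin2+/GFP+ and 2.31, 2.46 and 2.59 in Axin2-/GFP- samples.

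Activators and other inhibitors of these enzymes gave 1 gene higher and 0 lower among 16 measured, against 4.64% and 11.4% of all genes. Their median log2 change was 0.25. Plaur, the urokinase receptor, which directs plasmin formation to the cell surface, had log2 values of 7.53, 7.20 and 7.14 in Axin2+/GFP+ and 6.48, 5.66 and 5.86 in Axin2-/GFP- samples. The populations did not overlap, and the change was 1.29 (standard error 0.24, 2.44-fold, adjusted p = 0.00920 from limma). Furin, a convertase that removes prodomains of membrane-type Mmp and Adamts enzymes, was not called (0.75, adjusted p = 0.123 from limma), and its populations overlapped.

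Among 15 ADAM and astacin proteases, the relatives that shed membrane proteins or process procollagen, 2 were higher and 2 were lower. Of all genes 4.64% were called higher and 11.4% lower. The median log2 change of the 15 was 0.28. Adam10, a sheddase of Notch receptors, had 3.64, 3.21 and 3.39 in Axin2+/GFP+ and 5.42, 4.94 and 5.44 in Axin2-/GFP- samples. All Axin2+/GFP+ samples were lower, by -1.85 on the log2 scale (standard error 0.21, adjusted p = 0.000882 from limma). Adam19 was lower as well, with a mean of 3.61 ± 0.17 in Axin2+/GFP+ and 4.86 ± 0.46 in Axin2-/GFP- cells (SD, n = 3 each, change -1.24, adjusted p = 0.0117 from limma). Adam8, a sheddase made by leukocytes, had 5.71 ± 0.53 in Axin2+/GFP+ and 4.74 ± 0.24 in Axin2-/GFP- cells (SD, n = 3 each), a change of 0.96 (adjusted p = 0.0463 from limma). With 1 sample left out Adam8 was called only without Axin2+/GFP+ replicate 1, and without any other sample it was 0.66 to 1.10 (adjusted p = 0.0590 to 0.140). Tll1, a tolloid-like procollagen C-proteinase, changed by 0.63 (adjusted p = 0.0390 from limma) at the level of the receptor genes. It too was called only without Axin2+/GFP+ replicate 1 among these fits (otherwise 0.54 to 0.68, adjusted p = 0.0772 to 0.138), and it was 0.31 when centred on the receptor genes (adjusted p = 0.274). Adam19 was not called without Axin2-/GFP- replicate 2 (-1.16, adjusted p = 0.0512 from limma). Its call was also lost under quantile normalization (-0.88, adjusted p = 0.0584 from limma) and cyclic loess (-0.87, adjusted p = 0.055 from limma). The B lineage markers moved in the direction of Adam10 and Adam19. Their summed linear signal was 94.4 to 102 in Axin2+/GFP+ and 1780 to 2410 in Axin2-/GFP- samples. Of 11 macrophage and monocyte markers 3 were called lower and 0 higher. Among 9 endothelial markers 1 was called lower and 0 higher. The part of any of these cell types in the changes of Adam10 and Adam19 was not tested.

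Of 16 measured proteoglycan and glycoprotein substrates 1 was higher and 2 were lower, against 4.64% and 11.4% of all genes. Their median log2 change was 0.15. Fibronectin (Fn1) had 5.06 ± 0.40 in Axin2+/GFP+ and 6.04 ± 0.36 in Axin2-/GFP- cells (SD, n = 3 each), a change of -0.98 (adjusted p = 0.0373 from limma). It was not called under quantile normalization (-0.43, adjusted p = 0.393) or cyclic loess (-0.40, adjusted p = 0.418), nor without Axin2+/GFP+ replicate 1 or 3 or Axin2-/GFP- replicate 1 or 2 (-0.75 to -1.05, adjusted p = 0.0554 to 0.124). The cell surface proteoglycan Sdc4 had 4.33 ± 0.14 in Axin2+/GFP+ and 5.18 ± 0.27 in Axin2-/GFP- cells (SD, n = 3 each), a change of -0.85 (adjusted p = 0.0208 from limma). This call was lost under quantile normalization (-0.32, adjusted p = 0.352) and cyclic loess (-0.36, adjusted p = 0.298), and without Axin2+/GFP+ replicate 3 or Axin2-/GFP- replicate 2 or 3 (-0.71 to -0.86, adjusted p = 0.0501 to 0.0814). Ncan, a proteoglycan of the aggrecan family known from brain, was higher by 1.01 (adjusted p = 0.0456 from limma), but with 1 sample left out it was called only without Axin2+/GFP+ replicate 3 and otherwise lay at 0.67 to 1.11 (adjusted p = 0.0606 to 0.136). The substrates for which the Adamts group is named were not called, with changes of 0.04 for aggrecan (Acan, 95% interval -0.31 to 0.39) and -0.17 for versican (Vcan, 95% interval -0.80 to 0.46).

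How far the 8 calls held was read under 17 alternative settings. Every change stayed positive in all settings that gave a value. In some of these settings the sign could not turn, because the change was that of the values as deposited. This held for the intensity trend, the methods' test, the replicate block, the dim-feature filter and the fits to all features. For called genes other than Adamts9 and Adamtsl1 it also held for feature means. The sign could turn under array weights, under the scalings and with a sample left out. Mmp25 was called in 16 of the 17, Mmp2 in 15, Adamtsl1 in 13, Timp2 in 8, Adamts4, Adamts9 and Adamts15 in 7 each, and Adamts5 in 4 of 16. The filter on dim features kept a gene that was bright in either population. Adamtsl1, Adamts4 and Adamts15 passed it through Axin2+/GFP+ cells alone, so their calls under it add no support. Under scaling alone, Mmp2 ranged between 1.14 and 2.03 and Mmp25 between 1.39 and 1.95, each called at every scaling. Adamts9 had 1.0 to 1.03 under cyclic loess and quantile normalization (adjusted p = 0.0120 and 0.0162 from limma) and 0.38 when centred on the receptor genes (adjusted p = 0.249).

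**Figure D5:**
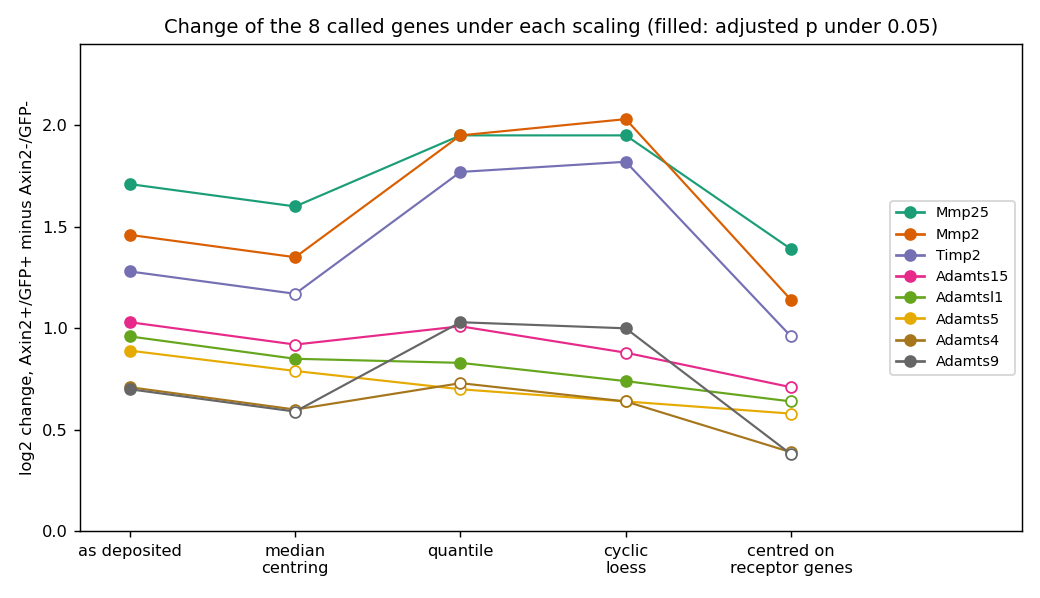
The log2 change between Axin2+/GFP+ and Axin2-/GFP- cells (vertical axis) of the 8 called genes under 5 scalings of the arrays (horizontal axis), with 1 line per gene and filled points where the adjusted p from limma is under 0.05. Mmp25 and Mmp2 are filled at every scaling, and no line crosses 0.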

How the data were processed

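RNA of 6 sorted samples was hybridised to Affymetrix whole-transcript arrays. For each feature the authors deposited a log2 value per sample. RMA and R 3.2.1 appear in the submitters' processing notes; the summarisation level and annotation are not given in the sources used. Values entered the tests unscaled, and 0 sample columns were left out. Of 35557 features, 21789 carry 1 gene symbol by the platform's probe table, 1621 several and 12147 none here; 21698 matched a RefSeq identifier, which changed 0 names. The brightest feature stood for each of 999 genes with several.

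Genes were tested by lmFit and eBayes of limma 3.58.1 (R 4.3.3, two-sided), with Benjamini-Hochberg adjustment over 19938 genes and a threshold of 0.05; summaries used Python 3.11.15. The procedure was tested on simulated data. Labels call the samples biological replicates, and p-values measure the spread between these pools. The number of arrays limits the precision. The 47 genes, the roles and the lists were chosen with earlier results of these data known. Named were the called genes, those with an unadjusted p under 0.05, the Timp genes, genes above the receptor genes' 95th percentile in a population, and called genes of each partner list. Acan, Vcan, Furin, Adamts8, single cell type markers and genes listed by chromosome order were named after their values were seen. Tried as alternatives were an intensity trend in limma, array weights, the replicate block and the methods' t-test; centring on the median or on the receptor genes, cyclic loess and quantile normalization; a dim-feature filter, feature means and fits to all features; and fits without each sample in turn.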

Additional observations from a re-analysis of the deposited data

How the results depend on the processing

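The count of the 47 genes called higher, 8 with the values as deposited, was 0 by the methods' t-test after adjustment, 5 with the replicate block, 3 under median centring, 2 when centred on the receptor genes and between 2 and 6 when a sample was left out. It was 2 without Axin2-/GFP- replicate 2, 3 without Axin2-/GFP- replicate 1 or 3, 4 without Axin2+/GFP+ replicate 3 and 6 without Axin2+/GFP+ replicate 1 or 2. The count lower, 0, was 1 when centred on the receptor genes (Adamts6, -1.02, adjusted p = 0.0388 from limma). The median of 0.35 was 0.24 under median centring, 0.03 when centred on the receptor genes and 0.20 under cyclic loess. Deviations of same-numbered samples from their population means had correlations of 0.031, 0.011 and 0.053. Those of samples with different numbers were -0.050 to 0.017. With 3 samples per population, these values cannot show whether same-numbered samples were paired. Over all genes 926 were higher, with 211 by the t-test, 459 under median centring, 210 when centred on the receptor genes, 592 after the filter on dim features and 239 to 852 with a sample left out. Lower were 2265, with 518 by the t-test, 3982 when centred on the receptor genes, 1165 under quantile normalization, 1373 under cyclic loess and 1376 to 2082 with a sample left out. The share of all calls that were higher was 29.0%, and 14.4% under median centring, 5.01% when centred on the receptor genes, 42.6% under quantile normalization and 39.6% under cyclic loess. Partner genes higher, 4 of 47, were 0 by the t-test, 2 with the replicate block, 1 under median centring, 2 under quantile normalization, 1 when centred on the receptor genes and 1 to 7 with a sample left out. Partner genes lower, 4, were 1 by the t-test, 7 when centred on the receptor genes, 2 under quantile normalization, 2 under cyclic loess and 1 to 5 with a sample left out. Changes that turned sign when centred on the receptor genes were those of Adamts1 (-0.05), Adamts10 (-0.16), Adamts7 (-0.19), Adamtsl5 (-0.10), Mmp13 (-0.06), Timp1 (-0.06) and Timp4 (-0.20). Quantile normalization turned Timp3 (0.40) and Timp4 (-0.11), and cyclic loess turned Timp3 (0.35) and Timp4 (-0.14). With a sample left out the change of Adamts1 ranged between -0.11 and 0.46, Adamts10 between -0.07 and 0.36, Adamts7 between -0.06 and 0.27, Mmp13 between -0.02 and 0.45, Mmp19 between -0.39 and 0.22, Timp1 between -0.00 and 0.59 and Timp4 between -0.02 and 0.25. None of these genes was called with the values as deposited. Of 636 values of 38 named genes under an alternative, 503 kept their direction and side of the threshold, 107 kept the direction and lost the call, 6 gained it and 20 turned. The direction could not turn where a setting altered the test or the features fitted and left the change itself the same. Apart from centring and fits on fewer samples, which shift or remove values by construction, the cause of the values that moved was not tested. Signal limits the 26 genes at the level of the receptor genes.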
